A study of Mus musculus with 7 samples.

Results

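The single cell table of *Tbx18* mutant and control mouse hearts held 17299 of the 76801 cells of the series. They came from 8 whole hearts of 3 embryonic stages, E14.5, E15.5 and lastly E17.5. A heart was taken as 1 combination of litter, mouse and genotype in the table, and its genotype was read from the table's own label. *Tbx18* encodes a T-box transcription factor. The mice carried the *Tbx18*-CreERT2 allele, a null allele that expresses an inducible Cre, and were outbred to C57BL/6 for 3 generations. The paper gives their background as a mixture of Black Swiss and C57BL6/J. Mutants were homozygous for the *Tbx18*-CreERT2 allele. Whether a profiled control carried 1 copy of the allele or none is not given in the labels. There were 3 mutants and 1 control at E14.5, and 1 mutant and 1 control at each of the other stages. At E15.5 and E17.5 mutant and control shared a litter label, while at E14.5 each heart had a litter label of its own. The study describes its controls as littermates, and whether the E14.5 labels mark dams or single embryos is not stated. Every group but the E14.5 mutants was therefore 1 animal.

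The epicardium is the mesothelial sheet around the heart. Cells leave it by epithelial to mesenchymal transition and give rise to fibroblasts and to mural cells, the smooth muscle cells and pericytes of the coronary vessels. It also sends growth factors to cardiomyocytes (CMs) and vascular endothelial cells (ECs). *Tbx18* is a widely used marker of the epicardium and is also expressed in fibroblasts and mural cells.

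Hearts were labelled with lipid-anchored barcodes, pooled and loaded on a droplet instrument. The 6 hearts of E14.5 and E17.5 formed 1 pool that was run in 2 wells (wells 1 and 2), and both E15.5 hearts were run apart (well 3), so the stage E15.5 and its run cannot be told apart. These 3 wells are named in the cell table and could not be matched to the 2 samples listed for the mutant pools. Each heart gave 1185 to 3635 cells, of which 390 to 1104 were non-myocytes. The median count of unique molecular identifiers (UMIs, 1 per captured transcript) per cell was 8241 to 9680 in the 6 hearts of the first pool, and 17002 in the control and 25564 in the mutant at E15.5. Wells shared 27 of the cell barcodes. The authors had clustered mutant and control cells together and named 8 cell types. No gene values were analysed here, so the names could not be checked against their markers (*Ttn*, *Sln* and *Myl2* for CMs, *Pecam1*, *Npr3* and *Fabp4* for ECs, *Wt1*, *Tbx18* and *Aldh1a2* for epicardial cells, *Postn* for fibroblasts). The mutated gene is thus itself among the epicardial markers, and the paper reports it as downregulated in mutant epicardial cells. Its part in the epicardial label was not tested.

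Epicardial cells took a larger share of the non-myocytes in mutants than in the control at E14.5 and E17.5, and a smaller share at E15.5. At E14.5 the control held 49 epicardial cells among 1104 non-myocytes, or 4.44% (95% exact binomial interval 3.30 to 5.83). The 3 mutants held 8.80% (6.66 to 11.4), 7.05% (4.98 to 9.62) and 7.71% (5.94 to 9.82), a mean of 7.85 ± 0.888% (SD, n = 3). All 3 lay above the control, by 1.59 to 1.98 times, though the interval of the second mutant overlapped that of the control. At E17.5 the control held 8 epicardial cells, or 1.17% (0.507 to 2.29), and the mutant 24, or 3.48% (2.24 to 5.14). The ratio of these shares was 2.97 (1.29 to 7.66). At E15.5 the control held 28 epicardial cells, or 4.58% (3.06 to 6.54), and the mutant only 2 of 390 non-myocytes, or 0.513% (0.0622 to 1.84), a ratio of 0.112 (0.0129 to 0.445). These intervals cover counting error alone.

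**Figure D1:**
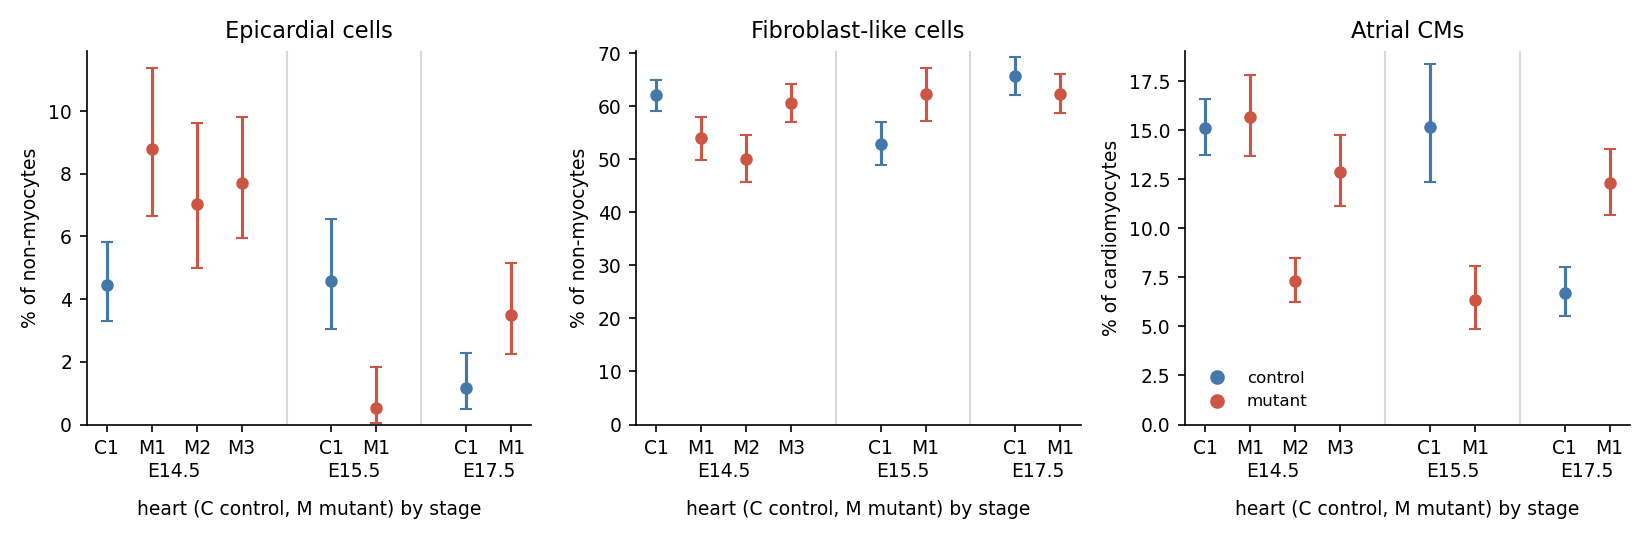
Share of epicardial cells and of fibroblast-like cells among non-myocytes, and of atrial CMs among cardiomyocytes, in percent on the vertical axis, for each of the 8 hearts (C control, M mutant) by stage. Bars are exact 95% binomial intervals. The epicardial share of the mutants is above the control at E14.5 and E17.5 and, at 0.513%, below it at E15.5.

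Across stages the mutants minus controls came to 0.55 ± 4.04 percentage points (SD over 3 stages) for the epicardial share (two-sided exact permutation test of genotype within stage, p = 0.875, adjusted p = 0.938 over 6 non-myocyte types). Genotype labels could be placed in 16 ways, so no p under 0.0625 was possible and no comparison here could reach 0.05. In the first pool alone (E14.5 and E17.5) the difference was 2.86 points with an exact permutation p = 0.125, the smallest p of its 8 allocations, and it was 3.26 points in well 1 and 2.43 in well 2. Among all cells the epicardial share was 1.35% in the control and 1.38 to 2.89% in the mutants at E14.5, 2.36% and 0.148% at E15.5, and 0.347% and 1.08% at E17.5.

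Set against fibroblast-like cells alone, the epicardial share of the mutants lay on the same side of the control at each stage as among non-myocytes. Of epicardial and fibroblast-like cells counted together, epicardial cells made up 6.68% in the E14.5 control and 14.02%, 12.3% and 11.3% in the mutants. The shares were 7.95% in the control and 0.816% in the mutant at E15.5, and 1.75% and 5.29% at E17.5. The 6 hearts of the first pool were read in both wells, and the epicardial share of non-myocytes in well 1 minus that in well 2 was -2.07 to 1.23 points, a technical SD of 0.817 points. This covers repeat reading of a heart only. With 1 control at each stage, the spread between control hearts could not be measured.

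The atrial share of CMs differed in the same direction as the epicardial share at E15.5 and E17.5. Atrial CMs made up 15.2% of CMs in the control and 6.35% in the mutant at E15.5, and 6.72% and 12.3% at E17.5. At E14.5 they made up 15.1% in the control and 15.7%, 7.31% and 12.9% in the mutants. The mutants with 7.31% and 12.9% had a smaller atrial share than the control and a larger epicardial share. The mutant with 15.7% lay above the control in both. Over the 3 stages the atrial share of the mutants differed from that of the controls by -2.14 ± 7.27 points (SD, exact permutation p = 0.688). In the wild-type hearts of the series, which were cut into 4 zones, the epicardial share was far larger in atria than in ventricles. It was 31.0 to 41.7% of non-myocytes in the atria and 3.604 to 20.4% in the ventricles of the CD1 and C57BL/6 strains at E14.5, 19.1 to 32.8% and 1.56 to 3.83% at E15.5, and 11.7 to 20.5% and 0.364 to 1.64% at E17.5. Both atria lay above both ventricles in 6 of 6 sets of strain and stage. The atrial share of CMs also depends on how many ventricular CMs were recovered. The part of atrial recovery in the mutant values was not tested. These zones were annotated in separate clusterings and held 12 to 383 non-myocytes each.

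**Figure D2:**
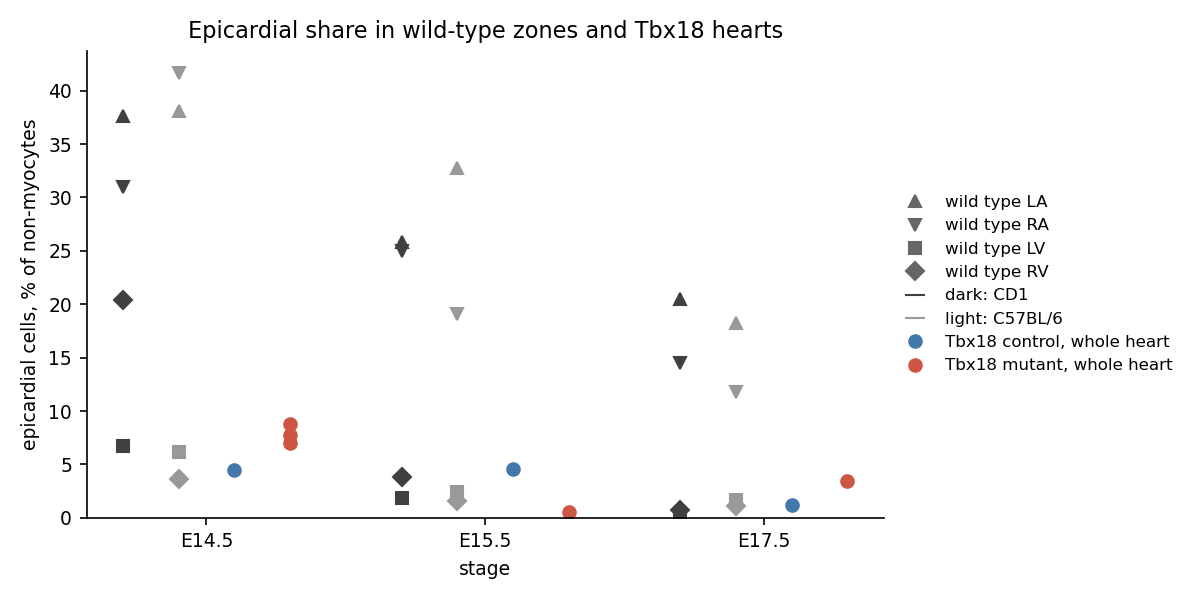
Epicardial cells in percent of non-myocytes (vertical axis) by stage in the 4 zones of wild-type CD1 (dark grey) and C57BL/6 (light grey) hearts and in whole *Tbx18* hearts. Atria (triangles) are above ventricles (squares and diamonds) at each stage, and the whole *Tbx18* hearts lie at 0.513 to 8.80%.

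For the *Wt1* line, the other epicardial mutant of the series, the E14.5 control held 5.92% (4.68 to 7.38) epicardial cells among non-myocytes and the mutant 4.34% (3.22 to 5.72). The fibroblast-like share there was 46.6% and 29.7%, and the endocardial share 26.9% and 43.4%. These were 1 heart each in a clustering of their own, and the difference between the 2 lines was not tested.

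Fibroblast-like cells were the largest non-myocyte type in each heart. They made up 62.0% (59.1 to 64.9) of non-myocytes in the E14.5 control and 54.0%, 50.1% and 60.7% in the mutants. The control had 52.9% (48.9 to 56.95) and the mutant 62.3% (57.3 to 67.1) at E15.5, and the shares were 65.7% (62.0 to 69.3) and 62.4% (58.7 to 66.0) at E17.5. The mutants thus lay below the control at E14.5 and E17.5 and above it at E15.5, opposite to the epicardial share, with which it shares the denominator. The mean difference was -0.36 ± 8.64 points (SD over 3 stages, exact permutation p = 0.938, adjusted p = 0.938). Without the second E14.5 mutant it was 0.439 points, and in the first pool alone it was -5.23 points (exact permutation p = 0.25).

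Mural cells had no label of their own in the *Tbx18* table, so no mural share can be given for these hearts. In the wild-type tables pericytes and smooth muscle cells were labelled inside the fibroblast-like type, where they made up 4.46 to 16.8% of its cells at these stages in CD1 and 7.67 to 12.8% in C57BL/6.

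The fibroblast-like type joined 7 clusters, numbered by the authors, and the makeup of these clusters differed between hearts. Cluster 20 held 5.99% of the fibroblast-like cells in the E14.5 control (4.33 to 8.03) and 12.6%, 13.3% and 13.1% in the mutants. It held 4.32% in the control and 8.64% in the mutant at E15.5, and 4.23% and 5.81% at E17.5, so that 5 of 5 mutants lay above their control. Cluster 7 lay below the control in 5 of 5 mutants. It held 27.2% in the E14.5 control against 23.4%, 17.2% and 10.8%, then 30.2% against 24.3% at E15.5 and 39.0% against 30.7% at E17.5. Its intervals overlapped those of the control in the first E14.5 mutant and at E15.5 and E17.5. Cluster 21 varied among the E14.5 mutants themselves, with 2 of 325 cells in the first, 24 of 256 in the second and 89 of 472 in the third, beside 58 of 685 in the control. Of the other fibroblast-like clusters, 5 and 11 had 3 and 2 of 5 mutants above the control, 17 had 1 and 22 had 4. Such a pattern was not limited to this type, since ventricular CM clusters 3 and 9 also had 5 of 5 mutants above the control. The clusters were picked out after their values were seen and were formed from the expression of these same cells, so no test was made. Their genes were not analysed here.

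**Figure D3:**
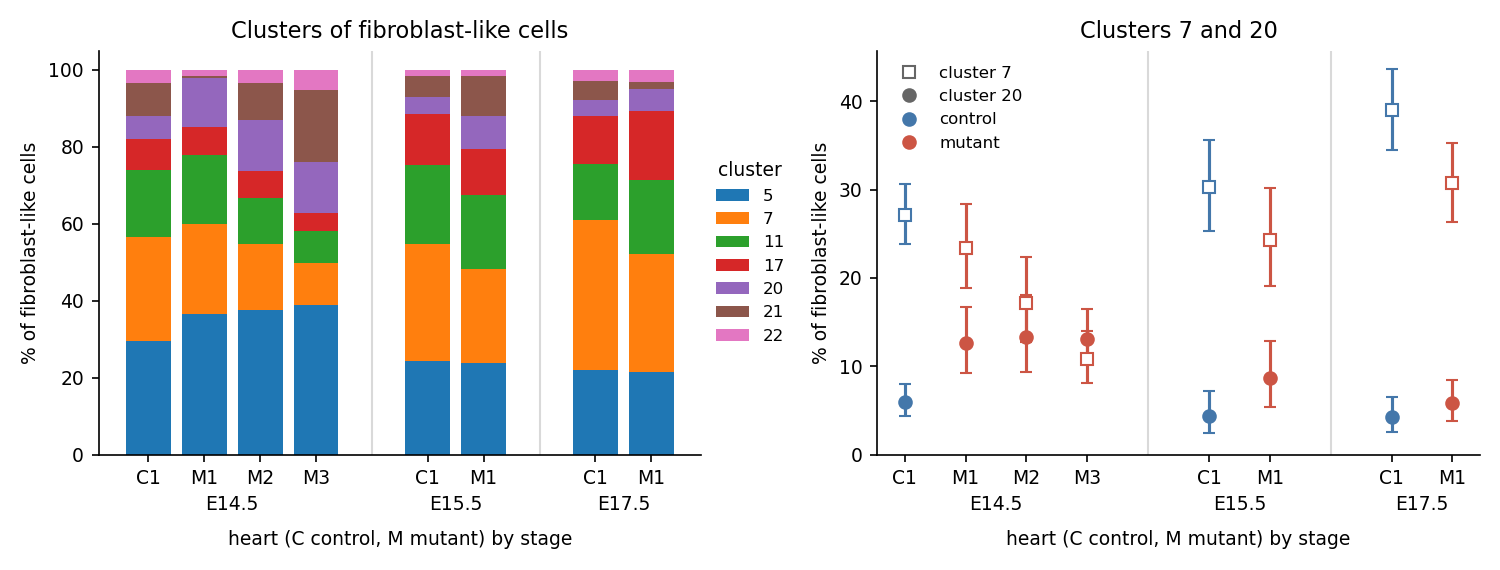
Left, the share of each of the 7 clusters in the fibroblast-like cells of a heart, in percent. Right, clusters 7 (open squares) and 20 (filled circles) with exact 95% binomial intervals, where cluster 20 of the mutants is above and cluster 7 below the control of the same stage.

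ECs were labelled as endocardial, which line the chambers, and vascular, which build the coronary vessels. Vascular ECs made up 7.43% of non-myocytes in the E14.5 control and 7.48%, 11.7% and 5.78% in the mutants. Their share was 9.31% in the control and 6.67% in the mutant at E15.5, and 8.20% and 13.5% at E17.5. The E17.5 control itself had 5.14% in well 1 and 11.4% in well 2, where the mutant had 12.7% and 14.4%. The E14.5 mutants spanned the control, and the other stages differed in opposite directions. Endocardial ECs made up 12.8% in the E14.5 control and 13.95%, 10.96% and 12.2% in the mutants, 21.4% and 23.1% at E15.5, and 7.03% and 5.08% at E17.5. Counted among ECs alone, vascular ECs were 36.8% in the control and 34.9%, 51.7% and 32.1% in the mutants at E14.5, 30.3% and 22.4% at E15.5, and 53.8% (43.8 to 63.7) and 72.7% (64.1 to 80.2) at E17.5. The technical SD between wells was 4.49 points for this last share and 2.08 points for the vascular share of non-myocytes.

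Immune cells made up 7.61% of non-myocytes in the E14.5 control and 6.68 to 10.6% in the mutants, 10.1% and 6.67% at E15.5, and 10.2% in both hearts at E17.5. Blood cells made up 5.71% and 5.15 to 12.7% at E14.5, 1.63% and 0.769% at E15.5, and 7.61% and 5.37% at E17.5. The blood share was larger in well 1 than in well 2 in 6 of 6 hearts, with means of 9.66% and 4.52% of non-myocytes, a mean difference of 5.14 points between wells of 1 pool. Mutants minus control came to -0.557 to 7.01 points at E14.5, -0.865 at E15.5 and -2.24 at E17.5 for the same share. Over the 6 non-myocyte types, no difference had an adjusted p under 0.938 in the exact permutation test. The lowest unadjusted p was 0.562, and 0 of 6 were under 0.05, which the allocations did not allow.

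CMs were the majority of cells in each heart but 1. They made up 69.6% of all cells in the E14.5 control and 67.2%, 80.4% and 64.1% in the mutants, 48.4% and 71.1% at E15.5, and 70.4% and 68.9% at E17.5. Ventricular CMs, the working muscle of the ventricles, accounted for most of this, with 59.1% and 55.9 to 74.5% of all cells at E14.5, 41.0% in the control and 66.6% in the mutant at E15.5, and 65.6% and 60.4% at E17.5. Over the 8 cell types counted among all cells, the adjusted p of the exact permutation test was at least 0.833.

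Ventricular CMs at E15.5 also differed between control and mutant in depth and in cell makeup. Their median UMI count was 18204 in the control and 30359.5 in the mutant, a ratio of 1.67. It was 9499 and 9173 to 9462 at E14.5 and 8817 and 10413 at E17.5. One of the 9 ventricular clusters, cluster 16, stood apart in its quality values, with a median of 0.162% mitochondrial UMIs and 4544.5 UMIs per cell over all hearts, where the other clusters had medians of 6.57 to 10.3% and 7844 to 12655 UMIs. Of its 388 cells, 368 had under 1% mitochondrial UMIs. It held 146 of 486 ventricular CMs in the E15.5 control, or 30.04% (25.99 to 34.3), and 42 of 900 in the mutant, or 4.67% (3.38 to 6.26). In the other hearts it held 1.06 to 4.82%. Without cluster 16 the medians at E15.5 were 25891 and 31089.5 UMIs, a ratio of 1.20.

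**Figure D4:**
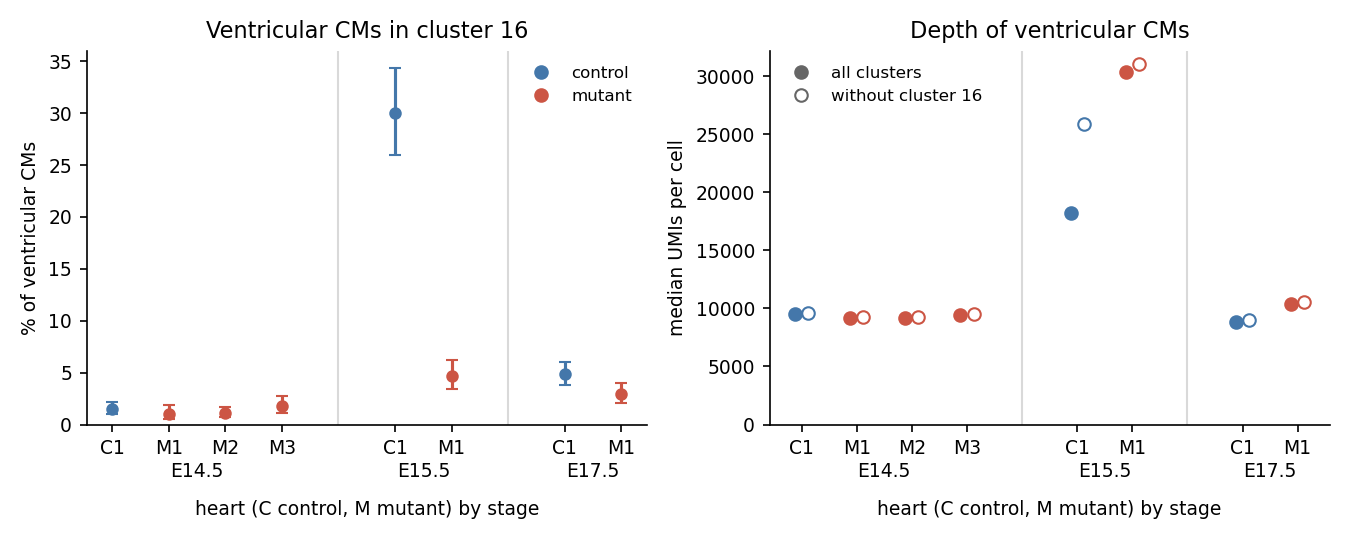
Left, the percent of ventricular CMs in cluster 16 by heart, with exact 95% binomial intervals. Right, the median UMI count of ventricular CMs with all clusters (filled) and without cluster 16 (open). The E15.5 control stands apart at 30.04%, and its median moves from 18204 to 25891.

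The mitochondrial percent, which reflects both the mitochondrial content of a cell and damage to it, was highest in ventricular CMs. Their median was 6.70% in the E14.5 control and 6.71 to 6.78% in the mutants, 9.32% and 10.6% at E15.5, and 8.68% and 8.70% at E17.5. All 5 mutants lay above their control, by a mean of 0.456 ± 0.738 points (SD over 3 stages, exact permutation p = 0.125, adjusted p = 0.929 over 8 types). Without cluster 16, an alternative chosen after the data were seen, the mean difference was -0.0949 points, and at E15.5 the control had 11.1% and the mutant 10.8%. Fibroblast-like cells had medians of 2.39 to 3.50% over the 8 hearts, and epicardial cells lay above them by at least 0.244 points in the 6 of 6 hearts with 10 or more epicardial cells.

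Immune cells of mutants had more UMIs than those of the control at each stage. Their median was 5319.5 in the E14.5 control and 5537, 6653 and 6589.5 in the mutants, 10357 and 12385 at E15.5, and 5310 and 6095.5 at E17.5. The mean difference on the log2 scale was 0.23 ± 0.029 (SD over 3 stages), or 1.17 times, with p = 0.0625, the smallest value the exact permutation test allows, and an adjusted p of 0.5 over 8 types. It was not seen in well 1 alone, where the difference was -0.015. At E17.5 the mutant was deeper in other types too. UMI medians there were 1.15 times the control in immune cells, 1.18 in ventricular CMs and 1.14 in blood cells. Fibroblast-like cells had 1.13 times, endocardial ECs 1.08, atrial CMs 1.01 and vascular ECs 0.933. Immune cells had 1.17 times at E14.5 and 1.20 at E15.5, where other compared types had 0.887 to 1.03 and 0.959 to 1.67. The part of heart depth in the immune difference was not tested. Detected genes of immune cells differed by 0.12 on the log2 scale (exact permutation p = 0.125, adjusted p = 0.929), by 0.037 in cells of 5000 to 15000 UMIs (exact permutation p = 0.75) and by 0.033 in well 1. For epicardial cells the UMI count could be compared at E14.5 only, the one stage with 10 or more of them in both genotypes, and was 6826 in the control and 7263, 6927.5 and 6447 in the mutants. No type had an adjusted p under 0.5 for UMIs or under 0.929 for genes or mitochondrial percent. In each of these measures 0 of 8 had an unadjusted p under 0.05, which the allocations of the permutation test did not allow.

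The share of UMIs from ribosomal protein genes, a readout of the translation machinery that was examined after the data were seen, was lower in the fibroblast-like cells of 5 of 5 mutants. The median was 21.4% in the E14.5 control and 20.1%, 19.1% and 18.8% in the mutants. It was 18.1% in the control and 17.3% in the mutant at E15.5, and 21.6% and 20.1% at E17.5. The mean difference was -1.44 ± 0.613 points (SD over 3 stages), with an exact permutation p = 0.0625, again the smallest value possible, and an adjusted p of 0.5 over 8 types. Well 1 gave -1.48, well 2 -1.85 and well 3 -0.810 points, and the first pool as a whole -1.76. Clusters of this type differ in the same measure, from 13.4% in cluster 22 to 22.7% in cluster 7. Within clusters, the mutants lay below their control in 5 of 5 hearts in clusters 11 and 17, in 4 of 5 in clusters 5 and 7, in 3 of 5 in cluster 20, in 3 of 3 in cluster 21 and in 0 of 2 in cluster 22, counting hearts with at least 10 such cells.

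Epicardial cells had a ribosomal share of 23.1% in the E14.5 control and 19.3%, 20.2% and 19.8% in the mutants, a difference of -3.31 points (exact permutation p = 0.25, the smallest of 4 allocations). At E17.5 the median was 17.7% over the 8 cells of the control and 16.5% in the mutant, and at E15.5 it was 16.1% in the control and 16.2% over the 2 cells of the mutant. Blood cells lay below the control in 4 of 4 mutants with at least 10 of them, with a mean difference of -0.662 points (exact permutation p = 0.125, the smallest of 8 allocations, adjusted p = 0.5). Their median was 11.01% in the control and 10.03 to 10.42% in the mutants at E14.5, and 8.96% and 8.36% at E17.5. Over the 8 types the mean difference was below 0 in 7, with vascular ECs above it (0.932 points). The differences at E14.5, E15.5 and then E17.5 were 0.136, -0.649 and -2.24 points in endocardial ECs and -0.239, 0.659 and -1.38 points in atrial CMs. Ventricular CMs had 13.7% in the control and 13.5 to 13.7% in the mutants at E14.5. They had 11.04% and 10.2% at E15.5, and 12.3% and 11.5% at E17.5. Cluster 16, with a median of 17.03% over all hearts, was more frequent in the E15.5 control. Without this cluster the ventricular medians were 9.99% in the control and 10.01% in the mutant at E15.5, and 12.2% and 11.4% at E17.5. The difference between cell types was not tested. The authors' doublet score of epicardial cells at E14.5 was 0.107 in the control and 0.146, 0.175 and 0.125 in the mutants, and its part in the epicardial values was not tested. With the 10% of cells of the highest score left out, the epicardial share of non-myocytes was 4.36% in the control and 9.03%, 7.32% and 7.93% in the mutants at E14.5, 4.39% and 0.525% at E15.5, and 1.19% and 3.15% at E17.5. The cut was set over cells of all types. It removed none of the 53, 36 and 60 epicardial cells of the E14.5 mutants, so it cannot show the part of doublets there.

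**Figure D5:**
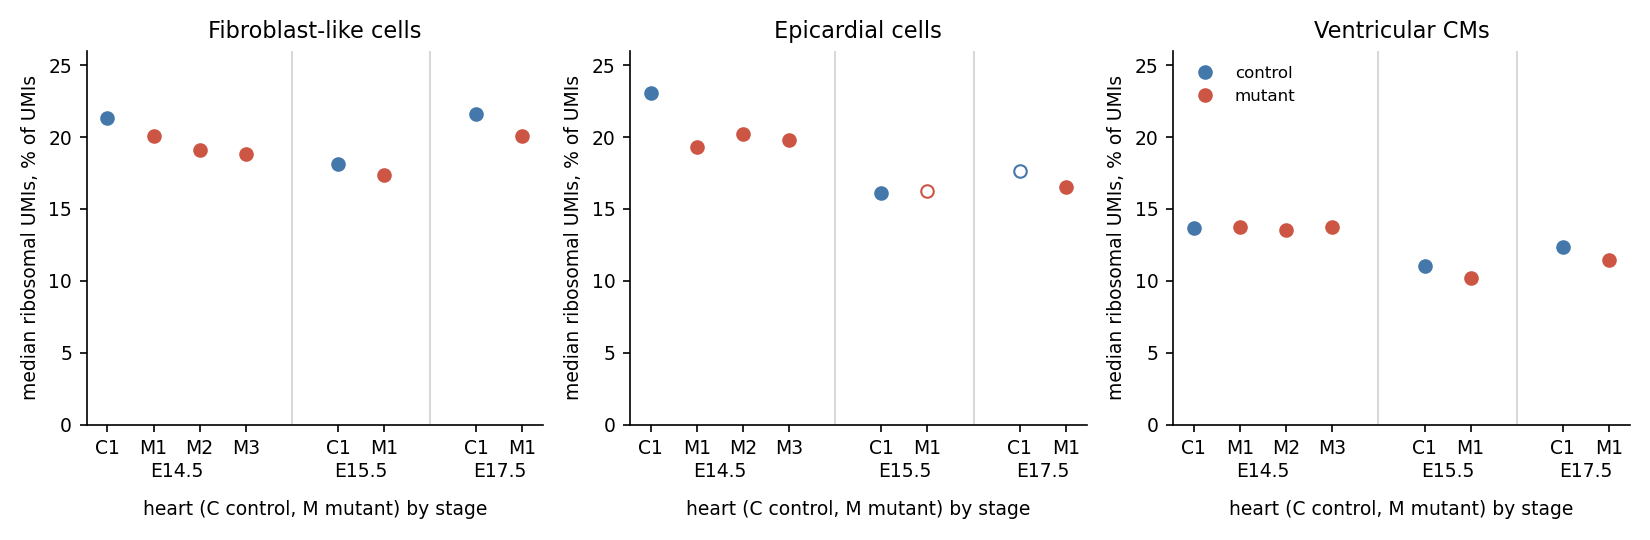
Median percent of UMIs from ribosomal protein genes (vertical axis) in fibroblast-like cells, epicardial cells and ventricular CMs of each heart. Open points rest on fewer than 10 cells. Fibroblast-like cells of all 5 mutants lie below the control of their stage.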

How the data were processed

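Per the labels, reads were aligned with Cell Ranger 3.1.0 and analysed with Seurat. The authors assigned cells to hearts by barcode, removed doublets, filtered cells on UMI count, genes and mitochondrial percent, and integrated the 3 wells before clustering. The total UMI count per cell, the mitochondrial percent and the doublet score were deposited by the authors without further normalization. Ribosomal UMIs were divided by the total count. The analysis left 202 columns of the 4 tables unused. Cells were summed or summarised by their median per heart (at least 10 cells), since cells are not replicates. Mutants and controls were compared within stage with an exact two-sided permutation test, each stage weighing the same, with Benjamini-Hochberg adjustment over cell types (Python 3.11.15, scipy 1.17.1). Intervals are exact (Clopper-Pearson, 95%). The statistics were tested on simulated data. The members, lists and measures were chosen with earlier results of these data known. Alternatives were single wells, filters, hearts or stages left out, and other scales.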

Additional observations from a re-analysis of the deposited data

Results flagged for a closer look

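In 29 of the 55 contrasts, mutants lay on one side of the control at 1 stage and on the other at another (counting E14.5 where its mutants lay on 1 side), and in none of them was the difference between stages tested. Values follow for 8, the shares and depths described above, and the other 21 were shares of all cells and depth, quality or doublet score medians. The epicardial share of non-myocytes was 3.42 points above the control at E14.5 and 2.31 above it at E17.5, and -4.06 points at E15.5. The same share of all cells gave 0.998, 0.736 and -2.21 points. The fibroblast-like share gave -7.13 points at E14.5 and -3.33 at E17.5 but 9.37 at E15.5. At E15.5 against E17.5, the endocardial share gave 1.67 and -1.95 points, the vascular share -2.65 and 5.30 points, the atrial share of CMs -8.84 and 5.59 points, and the ventricular share of all cells 25.6 and -5.22 points. The median UMI count of ventricular CMs gave -0.033 at E14.5, 0.74 at E15.5 and 0.24 at E17.5 on the log2 scale. No genotype at 1 stage had more than 3 hearts, so no heart was examined as an outlying sample.

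The table also counts UMIs of 2 reporters, EGFP and tdTomato, in the first pool, which no comparison used. An EGFP UMI was found in 6 of 14763 cells, or 0.0406% (0.0149 to 0.0884), 3 of them in controls and 3 in mutants, and a tdTomato UMI in 1 cell.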

How the results depend on the processing

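No adjusted p came to 0.05 or less under any of the 21 alternatives, of which only the one with labels permuted over all hearts (56 allocations) could have reached it. Of 9 differences followed, 3 kept their sign in all alternatives run: ventricular UMI counts (0.065 to 0.74, log2), immune detected genes (0.021 to 0.16, log2) and the ribosomal percent of fibroblast-like cells (-1.85 to -0.810 points). The epicardial share of non-myocytes changed sign in well 3 alone (-4.06 points), without E14.5 or within the litters of E15.5 and E17.5 (-0.875 in both), without E17.5 (-0.324) and as a log2 odds ratio (-0.17). The fibroblast-like share did so in well 3 (9.37), without E14.5 or within litters (3.02 in both) and without E17.5 (1.12), and leaving out 1 E14.5 mutant gave -1.32 to 0.439. The atrial share of CMs did so in well 1 (2.19), well 2 (0.110) and without E15.5 (1.20). The epicardial share of all cells did so in well 1 (1.001), well 2 (0.725), without E15.5 (0.867) and over all hearts (0.301), and leaving out 1 E14.5 mutant gave -0.251 to 0.000393. Immune UMI counts did so in well 1 (-0.015). The mitochondrial percent of ventricular CMs did so in well 2 (-0.136), over all hearts (-0.321), without cluster 16 (-0.0949) and without cells under 1% mitochondrial (-0.0739), the last 2 chosen after seeing the data. The causes were not tested. The litter block changed no call, and by the table's labels it holds only 2 litters, so its smallest p was 0.5. The table marks no cells for exclusion, so keeping them could not be run. Counts of 2 to 60 epicardial cells per heart limit these shares.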
